A study of Mus musculus with 16 samples.

Results

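Mouse chromosome 18 carried 523 protein-coding rows in the deposited expression table, and 275 of them reached at least 1 FPKM (fragments per kilobase of gene, scaled by sequencing depth) in at least 4 of the 16 libraries. These 275 genes are the members described here, taken in the order of their start positions from Crem to Gm45871 (build GRCm38). The other 248 stayed below that level and were not tested. At the edge of the filter, Cables1, Ttc39c, Slc14a1 and Gm17669 reached 1 FPKM in exactly 4 libraries (median of their means 0.638 FPKM) and were members, and Stard6, Lox and Lipg reached it in 3 (0.567 FPKM) and were not. The members are 275 of the 10891 protein-coding genes that passed the same filter, of 12319 genes of all kinds that passed and of 54532 rows in all. The chromosome was selected on the BdP minus WT difference in log2(FPKM + 1) of its genes, which had already been seen to be above 0 in these libraries, while the FPKM filter and the position chose the members within it. Their difference between genotypes is therefore given as a description. Calls of that contrast are only counted, beside the share or number of all genes tested, with nothing read from them. They are counted again under alternative settings. Results are tested only for cisplatin.

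Each library held RNA from an end-stage tumour grown under the skin of C57BL/6J mice of both sexes, 8 weeks old at implantation. The tumours came from B16F10, a mouse melanoma cell line, either as the BdP derivative, which the sample titles call Pros1-deficient and another label a Pros1 knockdown, or as the wild-type line (WT). Mice received cisplatin (5 mg/kg), which forms platinum crosslinks in DNA, once a day for 3 days in 2 rounds from day 8 after implantation, or the vehicle PBS on the same days. Each of the 4 groups, namely BdP and WT tumours under cisplatin and BdP and WT tumours under PBS, had 4 libraries. The sources used here do not give how Pros1 was lowered, nor whether BdP is 1 clone or a pool. They number the replicates but do not say that each came from a separate animal, so p-values measure only the spread between these libraries.

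Genes of a chromosome have no common function. What they share is a DNA molecule, so that gaining or losing it alters the dose of all of them together, and tumour lines kept in culture often differ in chromosome content. Mouse chromosome 18 holds counterparts of genes on human chromosomes 5 and 18, among them Smad2 and Smad4 (signal transducers of TGF-beta), Apc (a brake on beta-catenin), Csf1r (the receptor for the macrophage growth factor CSF1) and Rps14 (a protein of the small ribosomal subunit). DNA content was not measured in the data used here.

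Pros1, which lies on another chromosome, ranged over 1.73 to 2.52 FPKM in BdP tumours under cisplatin, against 7.78 to 11.5 FPKM in WT tumours under cisplatin, and over 1.24 to 1.61 FPKM in BdP tumours under PBS, against 4.79 to 9.77 FPKM in WT tumours under PBS. All 8 melanoma and melanocyte markers were expressed in every group, with a summed level of 4903 to 8928 FPKM per library. Reads assigned to genes numbered 10051843 to 27055771 per library. WT PBS 1 stood apart, because 76.9% of its reads were mitochondrial and only 2322202 others remained. WT cisplatin 4 had 21.7% and WT cisplatin 3 had 12.2% mitochondrial reads, and the other 13 libraries had 2.03% to 5.06%. For BdP minus WT under PBS, most medians of the members are also given without WT PBS 1. Some are given only with it, such as those by strand, by overlap, unfiltered or for members apart in both treatments. Differences of the genes described here are also given without WT PBS 1 where they then changed sign or moved by more than 1.5 times. The 4 leukocyte markers summed to 77.7 to 267 FPKM in BdP tumours under cisplatin, against 12.4 to 131 FPKM in WT tumours under cisplatin, and to 48.2 to 529 FPKM in BdP tumours under PBS, against 5.42 to 228 FPKM in WT tumours under PBS. In these bulk samples fewer cells of a type and less RNA per cell cannot be told apart.

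The typical member was slightly higher in BdP than in WT tumours. The median BdP minus WT difference over the 275 members was 0.27 on the log2(FPKM + 1) scale under cisplatin (quartiles 0.14 and 0.41) and 0.20 under PBS (quartiles 0.01 and 0.39). Over all 12319 genes tested the medians were 0.007 under cisplatin and 0.01 under PBS. The difference was above 0 for 248 members (90.2%) under cisplatin, where 51.1% of all genes tested were above 0. Under PBS it was above 0 for 207 members (75.3%), against 51.3% of all genes tested. Without WT PBS 1 the median under PBS was 0.18, with 229 members (83.3%) above 0, against 51.1% of all genes tested. With no filter, over the 453 protein-coding genes of the chromosome that had any value, the medians were 0.15 under cisplatin and 0.085 under PBS. In 192 members (69.8%) it was above 0 in both treatments, as it was in 33.9% of all genes tested. Only 12 members were below 0 in both, namely Rpl27-ps3, Zfp35, Syt4, Gm6665, Pcdhgb2, Spry4, Ppic, Megf10, Slc27a6, Il17b, Rnmt and Pard6g. With WT PBS 1 left out, 32 members had the other sign under PBS, 212 were above 0 in both treatments and 10 below 0 in both. Of the 12 just named, Syt4 (0.001), Ppic (5.5e-05), Il17b (0.29) and Rnmt (0.06) were then above 0 under PBS.

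**Figure D1:**
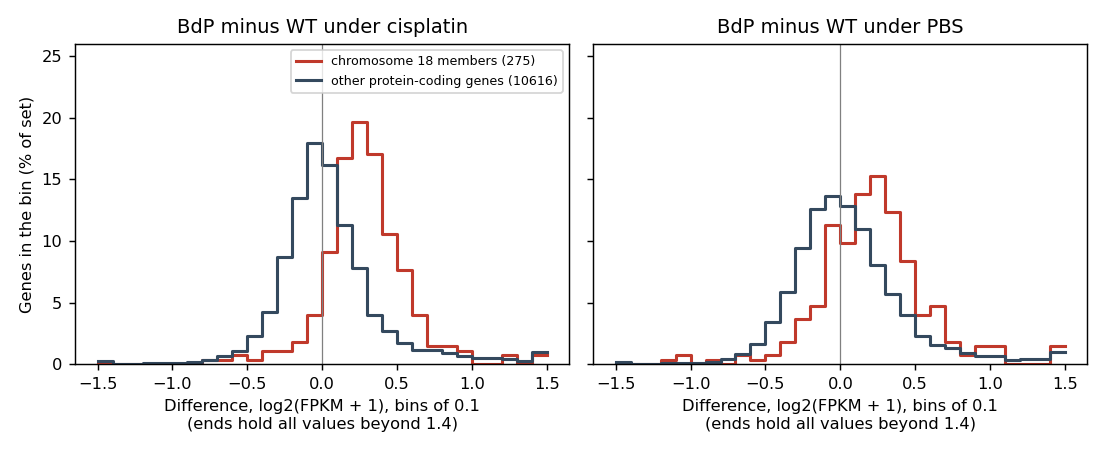
Share of genes (%) by their BdP minus WT difference in log2(FPKM + 1), in bins of 0.1, for the 275 chromosome 18 members (red) and the 10616 protein-coding genes on other chromosomes (blue), under cisplatin (left) and PBS (right). The red curve is centred to the right of the blue one, with medians of 0.27 and 0.20 in place of values near 0. The curves also differ in width. The SD over genes was 0.32 for members and 0.38 for the others under cisplatin, and 0.39 and 0.41 under PBS.

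The shift was made of many small differences. Under cisplatin 201 members (73.1%) lay between 0 and 0.5 and 47 (17.1%) above 0.5, where 42.1% and 8.29% of the protein-coding genes on other chromosomes lay. Under PBS 164 members (59.6%) lay between 0 and 0.5 and 43 (15.6%) above 0.5, against 41.5% and 9.69% of the other protein-coding genes. Leaving out WT PBS 1, these were 194 (70.5%) and 35 (12.7%) members, against 42.5% and 7.52% of the others. Below -0.5 lay 4 members (1.45%) under cisplatin and 7 (2.55%) under PBS, against 3.00% and 3.70% of the other protein-coding genes. For the 170 members that averaged at least 5 FPKM, where the added 1 FPKM matters little, the ratio of BdP to WT group means had a median of 1.22 under cisplatin (quartiles 1.13 and 1.38) and 1.14 under PBS (quartiles 0.989 and 1.28), or 1.11 under PBS without WT PBS 1.

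The level of the chromosome separated all BdP libraries from all WT libraries. That level is the median over the 275 members of log2(FPKM + 1) minus the gene's own mean over the 16 libraries. It lay between 0.103 and 0.141 in BdP tumours under cisplatin, against -0.195 to -0.131 in WT tumours under cisplatin. Under PBS it lay between 0.099 and 0.129 in BdP tumours and between -0.185 and -0.048 in WT tumours, the lowest of them WT PBS 1. The 4 BdP libraries of either treatment were close together and no BdP library came near a WT library. By read share, too, every BdP library stood above every WT library, but the order within WT tumours under PBS differed. The members took 2.06% to 2.37% of the nuclear protein-coding reads in BdP tumours under cisplatin, against 1.73% to 1.798% in WT tumours under cisplatin. They took 2.13% to 2.25% in BdP tumours under PBS, against 1.57% to 1.94% in WT tumours under PBS. Cd74, the invariant chain of MHC class II and one of the most abundant members, varied widely between libraries. Without it the shares were 1.89% to 2.22% in the 8 BdP libraries and 1.55% to 1.85% in the 8 WT libraries.

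**Figure D2:**
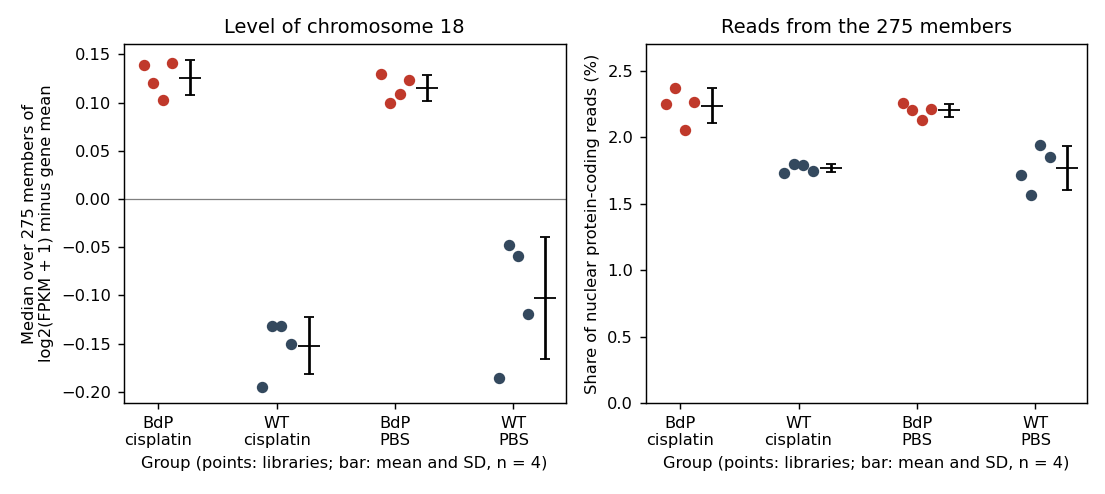
Level of chromosome 18 in each library (left, median over 275 members of log2(FPKM + 1) minus the gene mean) and the members' share of nuclear protein-coding reads (right, %), with the mean and SD of each group of 4. All 8 BdP libraries (red) lie above all 8 WT libraries (blue) in both panels, and the lowest point of WT under PBS on the left is WT PBS 1.

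Among the 20 chromosomes compared, 18 had the highest median difference in both treatments. The next were chromosome 8, with 0.12 under cisplatin and 0.11 under PBS, and chromosome 1, with 0.09 in each. Chromosome 3 was the lowest, at -0.20 under cisplatin and -0.14 under PBS, followed by chromosome 17 at -0.18 and -0.09. Chromosome 18 was also the highest under PBS without WT PBS 1, at 0.18, followed by chromosomes 1 and 8 at 0.09 each, and chromosome 3 the lowest at -0.15. As ratios of group means for genes of at least 5 FPKM, chromosome 3 had medians of 0.834 under cisplatin and 0.862 under PBS, and chromosome 17 had 0.867 and 0.902.

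**Figure D3:**
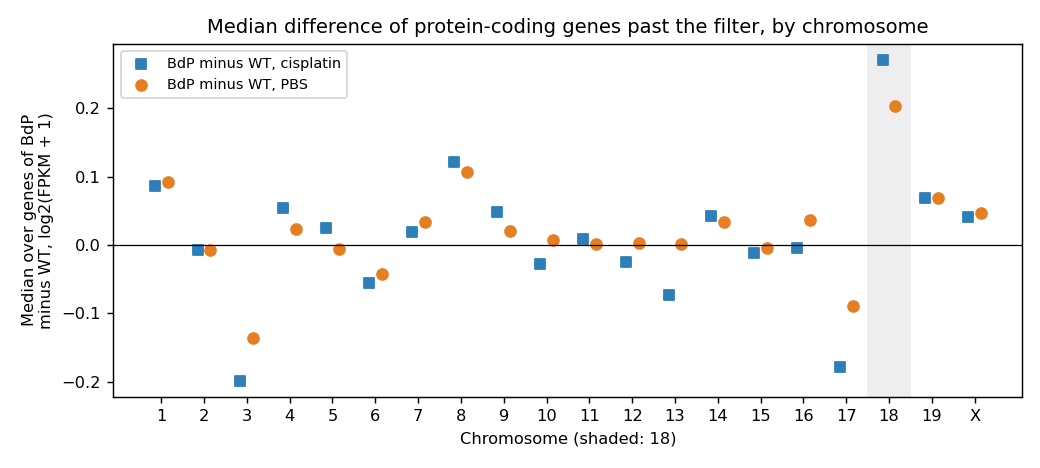
Median over protein-coding genes of the BdP minus WT difference in log2(FPKM + 1), for each chromosome, under cisplatin (squares) and PBS (circles). Chromosome 18 (shaded) stands highest at 0.27 and 0.20, and chromosome 3 lowest at -0.20 and -0.14.

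The difference ran along the whole chromosome and was not held in a single stretch. A running median of 21 neighbouring members stayed above 0 in 255 of 255 positions in both treatments. Under cisplatin it ranged over 0.14, centred on Rnf14, to 0.40, centred on Rbm22. Under PBS it ranged over 0.08, centred on Fam210a, to 0.36, centred on Slc26a2. In the absence of WT PBS 1 it ranged under PBS over 0.07, centred on Gnpda1, to 0.28, centred on Slc26a2. In 10 Mb bins the medians under cisplatin were 0.17 in the first 10 Mb (18 members), 0.29 at 10 to 20 Mb (19 members), 0.24 at 20 to 30 Mb (19 members), 0.27 at 30 to 40 Mb (78 members), 0.22 at 40 to 50 Mb (22 members), 0.27 at 50 to 60 Mb (20 members), 0.33 at 60 to 70 Mb (49 members), 0.33 at 70 to 80 Mb (27 members), 0.29 at 80 to 90 Mb (21 members) and 0.17 at 90 Mb and beyond, where there were only 2 members, Tmx3 and Gm45871. In the same order the medians under PBS were 0.24, 0.27, 0.16, 0.18, 0.19, 0.10, 0.20, 0.28, 0.30 and 0.21. With WT PBS 1 left out they were 0.22, 0.24, 0.13, 0.17, 0.10, 0.17, 0.19, 0.27, 0.26 and 0.08. No bin had a median below 0 in either treatment. Each of the 19 members at 10 to 20 Mb and each of the 22 members at 40 to 50 Mb was above 0 under cisplatin.

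No position split the members into parts of clearly unlike level. The split with the largest gap between medians, with at least 15 members on each side, fell under cisplatin between Usp14 and Rock1, with 0.17 over the 18 members before it and 0.28 over the 257 after it. Under PBS it fell elsewhere, between Pqlc1 and Ctdp1, with 0.20 over 258 members and 0.32 over 17. The split under PBS without WT PBS 1 fell between Rnmt and Tcf4, with 0.16 over 224 members and 0.26 over 51. The bin of at least 15 members with the lowest median under PBS also hung on that library, being 50 to 60 Mb (0.10) with it and 40 to 50 Mb (0.10) without it.

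**Figure D4:**
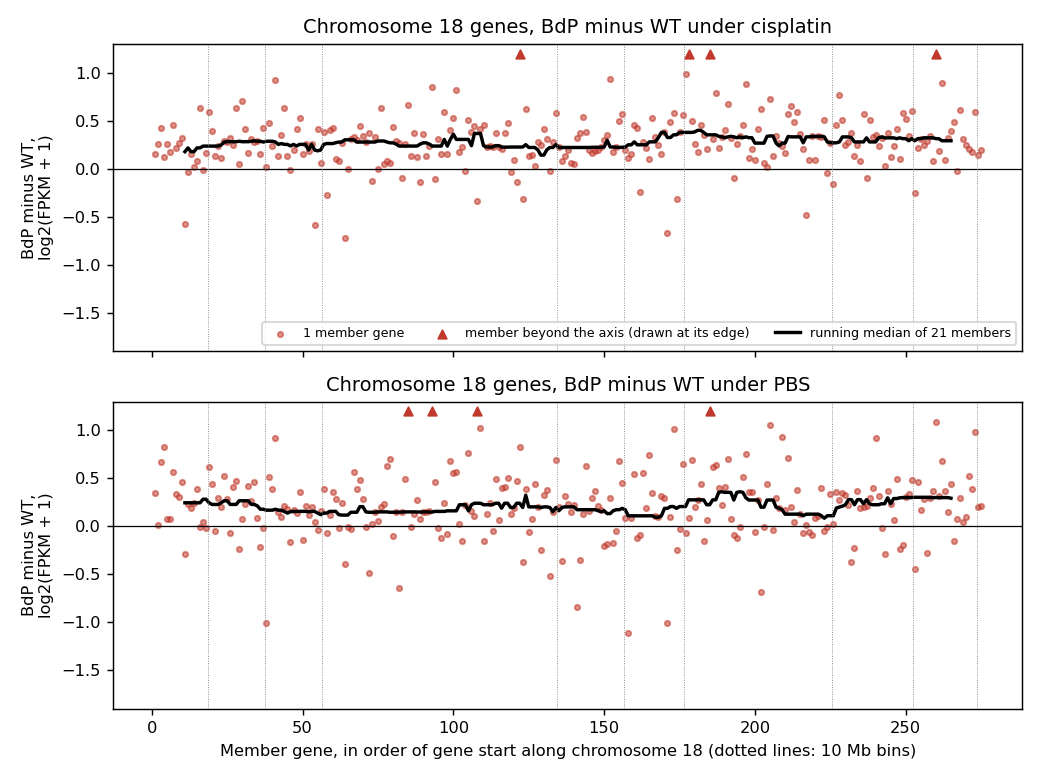
BdP minus WT difference in log2(FPKM + 1) of each of the 275 members (points) in their order along chromosome 18, with a running median of 21 members (line), under cisplatin (top) and PBS (bottom). Dotted lines separate 10 Mb bins and triangles mark members beyond 1.2. The line stays above 0 throughout, between 0.14 and 0.40 under cisplatin and between 0.08 and 0.36 under PBS.

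The difference was then set beside expression, gene length, strand and overlap. Expression entered the choice of members through the filter, so what follows on it holds among members above that filter. In 4 equal classes of mean expression, lowest to highest, the median difference under cisplatin was 0.28, 0.27, 0.25 and 0.28, much the same at every level. Under PBS it was 0.29, 0.27, 0.17 and 0.15, and without WT PBS 1 it was 0.22, 0.22, 0.18 and 0.12. Members with a summed exon length above the median of 3855 bases had medians of 0.28 under cisplatin and 0.28 under PBS, and shorter ones 0.25 and 0.12. Leaving out WT PBS 1, the medians under PBS were 0.23 for the longer and 0.12 for the shorter members. Members on the plus strand had 0.28 under cisplatin and 0.20 under PBS, and those on the minus strand 0.25 and 0.22. A total of 118 members overlap another gene of the table in position, and the strand setting of the read counting is not given in the sources used here, so reads of such genes could not be told apart. Those 118 had medians of 0.25 under cisplatin and 0.21 under PBS, and the 157 that overlap none had 0.28 and 0.20.

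The 30 rows of chromosome 18 that passed the filter but do not code for protein did not share the shift. Their median was -0.04 under cisplatin and -0.05 under PBS, with 13 and 14 of the 30 above 0, and 0.005 under PBS without WT PBS 1. They included 8 processed pseudogenes, copies of mature transcripts from genes elsewhere, with medians of -0.15 under cisplatin and -0.37 under PBS. The 4 long intergenic RNAs had 0.23 under cisplatin and 0.15 under PBS. Reads of a pseudogene and of its parent gene are hard to separate, which makes these values uncertain, as it does for the members Rpl27-ps3 and Gm6665.

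Members whose libraries did not overlap between genotypes were counted next. Under cisplatin 99 members (36%) had every BdP library above every WT library, where 6.41% of all genes tested did, and 2 members had the reverse, where 6.6% did. Under PBS 43 members (15.6%) had every BdP library above every WT library, where 3.36% of all genes tested did, and 2 had the reverse, where 4.32% did. With the 3 WT libraries left without WT PBS 1, 54 members had every BdP library above and 5 the reverse under PBS. Fewer libraries are more easily apart, and the share over all genes is not given for that comparison. These 2 counts therefore cannot be set beside those with all libraries. Nothing is read from these counts, since the same contrast led to the chromosome. In 25 members (9.09%) the BdP libraries lay above the WT libraries in both treatments, as in 116 of all genes tested (0.942%), and no member had the reverse in both. The 25 were Bambi, Rock1, Esco1, Cables1, Trappc8, Pik3c3, Sap130, Pura, Ankhd1, Hars2, Pcdhgb1, Ythdc2, Dmxl1, Cep120, Lmnb1, Chsy3, Tcof1, Arhgef37, Napg, Mppe1, Tcf4, Ctif, Gm16286, Tshz1 and Socs6. They lay in 9 of the 10 bins, all but the last, which holds only 2 members. Their median difference was 0.39 under cisplatin and 0.53 under PBS, which is raised by the way they were picked. Cables1 reached 1 FPKM in exactly 4 libraries, all from BdP tumours. It thus passed the filter only through the genotype where it was high.

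Rock1 (ENSMUSG00000024290, chr18:10064401-10181792, minus strand) codes for a kinase that drives actomyosin contraction. It had 10.4, 11.3, 12.4 and 11.6 FPKM in BdP tumours under cisplatin, against 5.81, 7.04, 8.40 and 7.97 FPKM in WT tumours under cisplatin. With PBS the gene had 12.2, 10.9, 9.65 and 12.3 FPKM in BdP tumours and 5.79, 7.76, 7.94 and 6.48 FPKM in WT tumours. The lowest BdP library was above the highest WT library in both treatments. The log2 difference was 0.59 ± 0.12 (SE) under cisplatin and 0.62 ± 0.12 under PBS.

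Chsy3 (chr18:59175401-59410446), an enzyme that builds chondroitin sulphate chains, was the most abundant of the 25. It had 129, 113, 115 and 122 FPKM in BdP tumours under cisplatin, against 81.1, 99.9, 79.3 and 66.4 FPKM in WT tumours under cisplatin. In the PBS groups it had 94.8, 81.4, 127 and 136 FPKM in BdP tumours and 54.7, 78.1, 74.7 and 68.3 FPKM in WT tumours. The groups did not overlap, but under PBS the second BdP library came within a few FPKM of the second WT library. The log2 difference was 0.56 ± 0.17 under cisplatin and 0.65 ± 0.17 under PBS.

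Mppe1 (chr18:67225530-67245830) codes for a phosphoesterase that acts on the lipid anchors of cell surface proteins. It had 5.46, 7.70, 6.16 and 6.60 FPKM in BdP tumours under cisplatin, against 4.52, 3.70, 3.70 and 4.12 FPKM in WT tumours under cisplatin. Under PBS it had 6.59, 7.14, 5.74 and 7.44 FPKM in BdP tumours and 2.81, 4.96, 4.19 and 3.11 FPKM in WT tumours. Its 4 BdP libraries were the higher ones in each treatment, and the log2 difference was 0.57 ± 0.14 under cisplatin and 0.72 ± 0.14 under PBS. Pik3c3, the lipid kinase that starts autophagosome formation, had one of the tightest patterns, with a mean of 8.43 ± 0.739 FPKM in BdP tumours under cisplatin, against 6.20 ± 0.222 FPKM in WT tumours under cisplatin, and 8.34 ± 0.441 FPKM in BdP tumours under PBS, against 6.18 ± 0.844 FPKM in WT tumours under PBS (SD, n = 4 each). Its log2 difference was 0.39 ± 0.09 in both treatments.

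A rule on size and function named 62 members. For size, only members with a mean of at least 5 FPKM were ranked, by their mean difference over both treatments. The largest were Cd74, Egr1, Iigp1, Slc12a2, Mbp, Tmco6, Csf1r, Mppe1, Cd14, Ankhd1, Nr3c1 and Rock1. Several of these are genes of immune cells or of the immediate early response, and these varied widely between libraries. Members below that floor were not ranked, among them Mzb1 (0.85 under cisplatin and 2.36 under PBS) and Nfatc1 (1.24 under cisplatin and 1.08 under PBS). Ankhd1 differed by 0.47 under PBS without WT PBS 1, and by 0.77 with it. Slc12a2 (chr18:57878678-57946821), a sodium, potassium and chloride cotransporter, had 8.97, 12.7, 7.26 and 13.5 FPKM in BdP tumours under cisplatin, against 8.09, 5.95, 5.82 and 6.65 FPKM in WT tumours under cisplatin. With PBS the gene had 9.08, 9.32, 10.7 and 11.9 FPKM in BdP tumours and 1.96, 5.26, 4.85 and 7.66 FPKM in WT tumours. The groups overlapped under cisplatin and did not under PBS, where the lowest value was WT PBS 1.

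Mbp (chr18:82475146-82585637), the gene of myelin basic protein, had 74.2, 74.1, 41.5 and 50.3 FPKM in BdP tumours under cisplatin, against 35.5, 50.2, 21.96 and 22.8 FPKM in WT tumours under cisplatin. In the PBS groups it had 31.8, 37.5, 43.9 and 44.1 FPKM in BdP tumours and 23.0, 24.9, 22.3 and 26.03 FPKM in WT tumours. Under cisplatin the second WT library reached the range of the BdP libraries, and under PBS the groups were apart. The log2 difference was 0.90 ± 0.24 under cisplatin and 0.68 ± 0.24 under PBS. Tmco6 (chr18:36735068-36742391), a transmembrane protein of little known function, had 6.14, 7.16, 5.82 and 7.01 FPKM in BdP tumours under cisplatin, against 5.57, 3.89, 6.35 and 3.33 FPKM in WT tumours under cisplatin. Under PBS it had 6.32, 6.50, 8.35 and 7.83 FPKM in BdP tumours and 1.69, 3.53, 4.50 and 2.98 FPKM in WT tumours. Only the PBS groups were fully apart, with a log2 difference of 1.02 ± 0.20, against 0.41 ± 0.20 under cisplatin.

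At the other end of the ranking of members with a mean of at least 5 FPKM were Gm6665, Gm4950, Rpl27-ps3, Pcdhgb2, Cdc25c and Syt4. Megf10, with a mean of 2.03 FPKM, was below that floor and not ranked, at -0.67 under cisplatin and -1.01 under PBS. Syt4, a synaptotagmin of secretory vesicles and an abundant member, had 217, 189, 166 and 201 FPKM in BdP tumours under cisplatin, against 228, 247, 208 and 250 FPKM in WT tumours under cisplatin. With PBS the gene had 159, 157, 179 and 215 FPKM in BdP tumours and 215, 159, 194 and 177 FPKM in WT tumours. The groups overlapped in both treatments, and the log2 difference was -0.27 ± 0.13 under cisplatin and -0.07 ± 0.13 under PBS, or 0.001 under PBS without WT PBS 1. Cdc25c, a phosphatase that starts mitosis, differed in sign between treatments, with 0.27 ± 0.23 under cisplatin and -0.65 ± 0.23 under PBS.

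**Figure D5:**
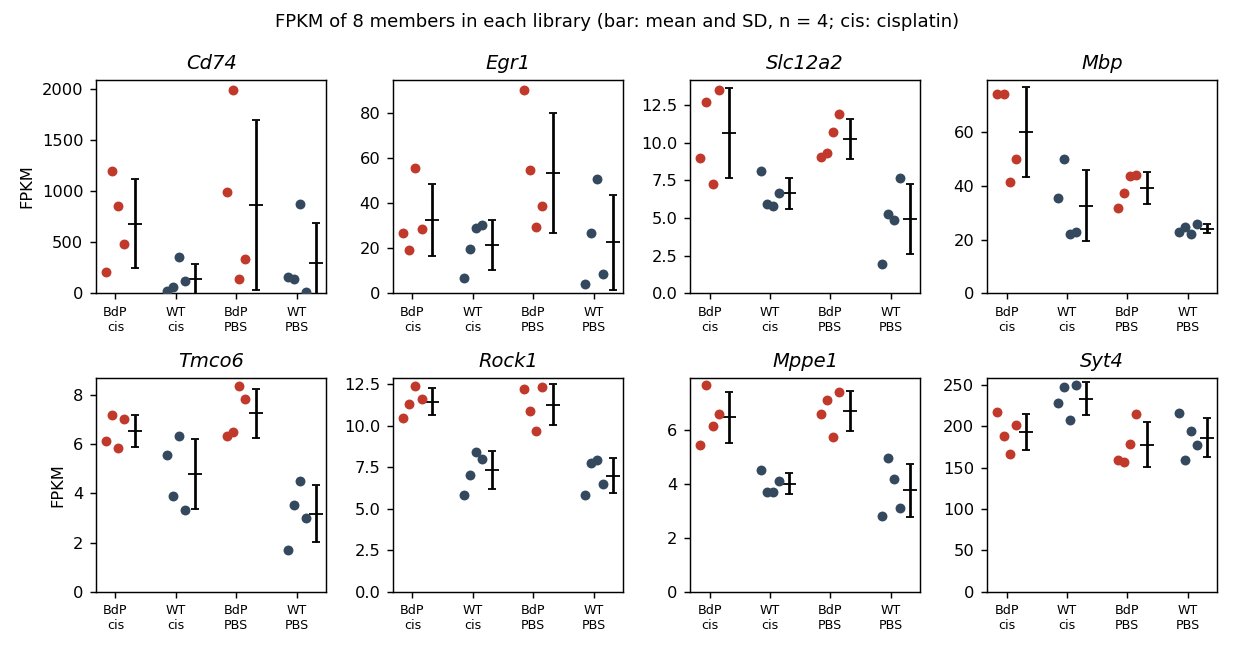
FPKM of 8 members in every library, with the mean and SD of each group of 4 (BdP red, WT blue). Rock1 and Mppe1 show BdP libraries above WT libraries in both treatments, Cd74 and Egr1 spread widely within every group, and Syt4 overlaps between genotypes.

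The 7 protocadherin members belong to the beta and gamma clusters. Genes of the gamma cluster, here Pcdhgb1 and Pcdhgb2, share their last exons, so the values of these depend on how reads were divided. The median difference of the 7 members was 0.21 under cisplatin and 0.40 under PBS (0.44 without WT PBS 1). Pcdhgb1 (chr18:37680233-37841870), a cell adhesion protein, had 5.42, 4.78, 3.25 and 4.16 FPKM in BdP tumours under cisplatin, against 1.49, 1.53, 1.04 and 1.02 FPKM in WT tumours under cisplatin. In the PBS groups it had 2.74, 3.18, 3.96 and 5.41 FPKM in BdP tumours and 0.798, 2.35, 2.37 and 1.49 FPKM in WT tumours. Its neighbour Pcdhgb2 went the other way, with log2 differences of -0.32 ± 0.16 under cisplatin and -0.37 ± 0.16 under PBS, against 1.24 ± 0.21 under cisplatin and 0.82 ± 0.21 under PBS for Pcdhgb1.

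Members were also called one by one, by limma, with p-values adjusted after Benjamini and Hochberg over the 12319 genes and a threshold of 0.05. Under cisplatin 6 members were called, all higher in BdP tumours (2.18% of members), where 1.07% of all genes tested were called in either direction and 0.349% as higher. They were Pcdhgb1, Rock1, Afg3l2, Tpgs2, Mbd2 and Galnt1. Under PBS 8 members were called, where 0.99% of all genes tested were called in either direction. The 7 higher ones, against 0.414% of all genes, were Ythdc2, Bambi, Rock1, Mppe1, Tmco6, Cep120 and Fam13b, and the 1 lower one, against 0.576%, was Megf10. Only Rock1 was called in both treatments. As the contrast led to the chromosome, nothing is read from these counts, and they hung on single libraries. Without WT PBS 1, WT PBS 4, BdP PBS 1, BdP PBS 3 or BdP PBS 4 the count under PBS was 2, 3, 1, 4 and 0, and without WT PBS 3 it was 21. In the same order, 79, 65, 47, 75, 25 and 356 of all genes tested were called. Under cisplatin the count of members was 1 without each of WT cisplatin 1, WT cisplatin 4, BdP cisplatin 2, BdP cisplatin 3 and BdP cisplatin 4. Of all genes tested, 50, 55, 62, 68 and 51 were then called. The count of members was 2 without WT cisplatin 3 or BdP cisplatin 1 (58 and 62 of all genes). It was 3 without BdP PBS 1 or BdP PBS 3 (105 and 97 of all genes). Without WT PBS 1, whose spread enters the shared variance of the fit, it was 27 (310 of all genes).

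Genes of the TGF-beta pathway were represented by 3 members, all above 0 under cisplatin and 2 of them under PBS. All 3 were above 0 under PBS without WT PBS 1. Smad4, the common partner of receptor-activated Smads, had 26.2, 23.4, 26.4 and 27.4 FPKM in BdP tumours under cisplatin, against 20.8, 23.0, 20.4 and 21.9 FPKM in WT tumours under cisplatin. Under PBS it had 25.3, 25.8, 28.1 and 31.5 FPKM in BdP tumours and 19.03, 22.6, 26.4 and 19.5 FPKM in WT tumours. The third WT library overlapped the BdP libraries under PBS, and the cisplatin groups were apart. Smad2, a receptor-activated Smad, differed by 0.32 ± 0.12 under cisplatin and by -0.01 ± 0.12 under PBS (0.07 without WT PBS 1). Smad7, an inhibitor of the pathway, differed by 0.36 ± 0.28 under cisplatin and 0.92 ± 0.28 under PBS. The list also named Skor2 and Zeb1, which lie on the chromosome but stayed below the filter.

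Beta-catenin and junction genes had 4 members, with 4 above 0 under cisplatin and 3 above 0 under PBS, with or without WT PBS 1. Apc differed by 0.33 ± 0.11 under cisplatin and 0.15 ± 0.11 under PBS. Ctnna1 (alpha-catenin, which ties cadherins to actin) differed by 0.12 ± 0.13 under cisplatin and 0.28 ± 0.13 under PBS (0.15 without WT PBS 1). Cdh2 (N-cadherin) differed by 0.42 ± 0.13 under cisplatin and -0.02 ± 0.13 under PBS (-0.05 without WT PBS 1). The desmosomal genes Dsc2, Dsc3 and Dsg2 stayed below the filter.

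DNA repair and damage genes had 5 members, all above 0 in both treatments, with medians of 0.30 under cisplatin and 0.39 under PBS (0.29 without WT PBS 1). Ercc3, a helicase of transcription and nucleotide excision repair, had 18.1, 18.001, 17.6 and 16.8 FPKM in BdP tumours under cisplatin, against 16.04, 15.2, 12.5 and 12.9 FPKM in WT tumours under cisplatin. With PBS the gene had 14.1, 17.1, 14.7 and 14.5 FPKM in BdP tumours and 6.86, 12.4, 14.1 and 13.2 FPKM in WT tumours, so the groups were apart under cisplatin and near each other under PBS, where its log2 difference of 0.39 was 0.17 without WT PBS 1. Esco1 (sister chromatid cohesion) differed by 0.40 ± 0.15 under cisplatin and 0.44 ± 0.15 under PBS (0.29 without WT PBS 1), Poli (a translesion polymerase) by 0.46 ± 0.18 under cisplatin and 0.36 ± 0.18 under PBS, and Rbbp8 (DNA end resection) by 0.11 ± 0.14 under cisplatin and 0.20 ± 0.14 under PBS (0.07 without WT PBS 1). Pmaip1 (the p53 target Noxa) had wide errors, with 0.24 ± 0.55 under cisplatin and 0.93 ± 0.55 under PBS.

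Protein synthesis genes had 10 members, with 9 above 0 under cisplatin and 8 under PBS, medians of 0.19 under cisplatin and 0.18 under PBS. Without WT PBS 1 the median under PBS was 0.21, with 9 above 0. Rps14 was the most abundant member of the chromosome, with a mean of 720 ± 86.5 FPKM in BdP tumours under cisplatin, against 624 ± 76.7 FPKM in WT tumours under cisplatin, and 819 ± 241 FPKM in BdP tumours under PBS, against 786 ± 247 FPKM in WT tumours under PBS (SD, n = 4 each). These groups overlapped, and the log2 difference under PBS was 0.07, or 0.26 without WT PBS 1. Tcof1, a nucleolar protein of ribosomal RNA transcription, differed by 0.31 ± 0.16 under cisplatin and 0.62 ± 0.16 under PBS. Hars and Hars2, the cytosolic and mitochondrial histidyl-tRNA synthetases, differed by 0.23 ± 0.12 and 0.37 ± 0.17 under cisplatin and by -0.04 ± 0.12 and 0.49 ± 0.17 under PBS (0.08 and 0.29 without WT PBS 1).

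Mitochondrial genes had 10 members, of which 10 were above 0 under cisplatin with a median of 0.39, and 6 under PBS with a median of 0.11. Without WT PBS 1, 9 were above 0 under PBS with a median of 0.15, and Ndufa2, of respiratory complex I, was at 0.10 in place of -0.15. Afg3l2, a protease of the inner membrane, had 41.8, 36.9, 35.6 and 43.2 FPKM in BdP tumours under cisplatin, against 22.1, 30.1, 25.2 and 25.7 FPKM in WT tumours under cisplatin. In the PBS groups it had 36.2, 29.2, 33.4 and 36.5 FPKM in BdP tumours and 20.1, 27.3, 29.2 and 26.9 FPKM in WT tumours. The groups were apart under cisplatin and met at 29.2 FPKM under PBS. Atp5a1, a subunit of ATP synthase, differed by 0.58 ± 0.19 under cisplatin and -0.19 ± 0.19 under PBS (0.03 without WT PBS 1). Its value in WT PBS 1, the library rich in mitochondrial reads, was 651 FPKM, against 337 to 354 FPKM in the other 3 WT libraries under PBS. Me2, a malic enzyme, also differed in sign, with 0.38 ± 0.14 under cisplatin and -0.37 ± 0.14 under PBS.

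Cytoskeleton and trafficking genes had 11 members, with 11 above 0 under cisplatin and 9 under PBS and medians of 0.45 under cisplatin and 0.39 under PBS. All 11 were above 0 under PBS without WT PBS 1, with a median of 0.32. Kif5b (a kinesin) differed by 0.32 ± 0.16 under cisplatin and 0.46 ± 0.16 under PBS, Bin1 (membrane curvature) by 0.45 ± 0.18 under cisplatin and 0.48 ± 0.18 under PBS, and Diaph1 (a formin of actin growth) by 0.63 ± 0.28 under cisplatin and 0.39 ± 0.28 under PBS. Chromatin and nuclear genes had 13 members, with 12 above 0 under cisplatin and 9 under PBS and medians of 0.26 under cisplatin and 0.28 under PBS. Without WT PBS 1, 10 were above 0 under PBS with a median of 0.15. Mbd2, a reader of methylated DNA, had 27.8, 27.1, 34.2 and 27.7 FPKM in BdP tumours under cisplatin, against 15.1, 16.2, 17.6 and 17.8 FPKM in WT tumours under cisplatin. Under PBS it had 28.4, 31.6, 24.0 and 29.1 FPKM in BdP tumours and 33.3, 21.1, 24.5 and 16.3 FPKM in WT tumours, which overlapped. Its log2 difference under PBS was 0.28, or 0.45 without WT PBS 1. Lmnb1 (lamin B1) differed by 0.15 ± 0.13 under cisplatin and 0.32 ± 0.13 under PBS (0.15 without WT PBS 1).

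The list of kinases and ubiquitin genes had 11 members, with 11 above 0 under cisplatin and 10 under PBS and medians of 0.31 under cisplatin and 0.36 under PBS (0.20 without WT PBS 1, again with 10 above 0). Csnk1a1 (casein kinase 1 alpha, of the beta-catenin destruction complex) differed by 0.32 ± 0.08 under cisplatin and 0.07 ± 0.08 under PBS. Of the 3 members on the list of stroma and matrix genes, 1 was above 0 in each treatment, namely Sema6a (a semaphorin), at 0.94 ± 0.24 under cisplatin and 0.30 ± 0.24 under PBS (0.17 without WT PBS 1). Without that library Ppic, a cyclophilin, was at 5.5e-05 under PBS, in place of -0.09. Megf10, a receptor for engulfing dead cells, had 1.13, 0.295, 1.03 and 0.855 FPKM in BdP tumours under PBS, against 2.79, 2.27, 2.82 and 2.56 FPKM in WT tumours under PBS. Those groups were apart, with BdP lower. Under cisplatin the first BdP library, at 2.83 FPKM, overlapped the WT libraries.

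Genes of myeloid cells and antigen presentation had 8 members, with 7 above 0 under cisplatin and 8 under PBS, the largest medians of the lists of 3 or more members (0.66 under cisplatin and 1.02 under PBS, or 0.83 without WT PBS 1). Cd74 (chr18:60803848-60812646) had 207, 1199, 854 and 481 FPKM in BdP tumours under cisplatin, against 19.3, 65.5, 360 and 122 FPKM in WT tumours under cisplatin. With PBS the gene had 996, 1991, 137 and 338 FPKM in BdP tumours and 163, 144, 880 and 9.02 FPKM in WT tumours. The genotypes overlapped in both treatments and WT PBS 3 was among the highest libraries. Csf1r differed by 0.79 ± 0.71 under cisplatin and 0.64 ± 0.71 under PBS, and Cd14 (the co-receptor for bacterial lipopolysaccharide) by -0.33 ± 0.85 under cisplatin and 1.62 ± 0.85 under PBS. The interferon-induced GTPases Iigp1 and Gm4951 differed by 1.94 ± 0.89 and 0.98 ± 0.46 under cisplatin and by 0.09 ± 0.89 and -0.07 ± 0.46 under PBS (0.20 and -0.01 without WT PBS 1). The list of immediate early genes held Egr1, Hbegf, Crem and Nr3c1, of which 3 were above 0 under cisplatin and 4 under PBS, with a median of 0.52 under PBS (0.44 without WT PBS 1). Egr1, a transcription factor induced within minutes of many stimuli, differed by 0.66 ± 0.63 under cisplatin and 1.60 ± 0.63 under PBS (1.05 without WT PBS 1). Nr3c1, the glucocorticoid receptor and not itself an immediate early gene, differed by 0.58 ± 0.20 under cisplatin and 0.69 ± 0.20 under PBS.

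Because leukocyte markers were also higher in many BdP libraries, the members were set beside a leukocyte score, the mean log2(FPKM + 1) of the 4 leukocyte markers. That score was 3.95 to 5.72 in BdP tumours under cisplatin, against 1.87 to 4.77 in WT tumours under cisplatin, and 3.40 to 6.62 in BdP tumours under PBS, against 1.12 to 5.45 in WT tumours under PBS. Pearson r was taken over the 16 libraries between deviations from the group means, so it does not take in the differences between groups. The 79 members with an r of at least 0.3 had median differences of 0.38 under cisplatin and 0.39 under PBS. The 196 members with a lower r had 0.23 under cisplatin and 0.14 under PBS, with 171 and 133 of them above 0. With WT PBS 1 left out the medians under PBS were 0.32 for the 79 and 0.13 for the 196. Over those 196 the level of the chromosome was 0.036 to 0.153 in the 8 BdP libraries and -0.180 to -0.025 in the 8 WT libraries, which did not overlap. Of the 25 members apart in both treatments, 14 had an r under 0.3, a smaller share than the 196 of all 275 members. This division was made after the data had been seen, and the part of leukocyte content in the difference was not tested.

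Cisplatin is the contrast that played no part in choosing the chromosome. No member was called with cisplatin in BdP tumours, in WT tumours or in the interaction, the cisplatin response of BdP minus that of WT. Among all genes tested limma called 0% in BdP tumours, 0.00812% (1 gene) in WT tumours and 0% in the interaction. At an unadjusted p below 0.05 there were 12 members in BdP tumours (4.36%, against 4.40% of all genes tested), 28 in WT tumours (10.2%, against 7.74%) and 16 in the interaction (5.82%, against 5.61%). The voom method of limma, applied to reads recovered from the FPKM values, also called 0 members in each of the 3. Among all genes tested it called 0 in BdP tumours, 3 in WT tumours and 1 in the interaction.

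The level of the chromosome was 0.126 ± 0.018 in BdP tumours under cisplatin and 0.115 ± 0.014 in BdP tumours under PBS (SD, n = 4 each), a difference of 0.010 (exact two-sided permutation p = 0.4). In WT tumours it was -0.152 ± 0.030 under cisplatin and -0.103 ± 0.063 under PBS, a difference of -0.049 (exact two-sided permutation p = 0.2). With 70 ways to split 8 libraries the smallest possible p is 0.0286. Leaving out WT PBS 1 made the WT difference -0.07. With each library centred on the other autosomes the WT difference was -0.06, and with no filter on low values it was -0.02, both at that smallest exact permutation p of 0.0286. The members' read share differed by 0.0348 percentage points between cisplatin and PBS in BdP tumours (exact permutation p = 0.657) and by -0.0028 in WT tumours (exact permutation p = 1).

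The median member differed between cisplatin and PBS by 0.009 in BdP tumours and by -0.02 in WT tumours, with 146 and 122 members above 0. In BdP tumours 13 members had every cisplatin library above every PBS library (4.73%), where 2.48% of all genes tested did, and 5 the reverse, where 1.94% did. In WT tumours none had every cisplatin library above every PBS library, where 1.75% of all genes did, and 5 had the reverse (1.82%), where 1.49% did. The interaction had a median of 0.05 over the members and 0.007 over all genes tested, with 155 members (56.4%) above 0.

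None of the members nearest to a call with cisplatin passed the test. In BdP tumours the smallest p belonged to Kif20a, a mitotic kinesin, with 17.3, 15.5, 11.5 and 12.4 FPKM under cisplatin, against 7.36, 9.68, 12.7 and 7.87 FPKM under PBS. The third PBS library overlapped the cisplatin libraries, and the log2 difference was 0.56 ± 0.17 (limma adjusted p = 1). In WT tumours it belonged to Commd10, of the COMMD family of endosomal trafficking proteins. Commd10 had 22.9, 23.9, 21.8 and 20.5 FPKM in WT tumours under cisplatin, against 27.2, 30.8, 31.2 and 30.3 FPKM in WT tumours under PBS, which did not overlap. Its log2 difference was -0.41 ± 0.08 in WT tumours (limma adjusted p = 0.194) and 0.13 ± 0.08 in BdP tumours, and the interaction was 0.54 ± 0.12 (limma adjusted p = 0.486). Rock1 differed between cisplatin and PBS by 0.02 ± 0.12 in BdP tumours and 0.05 ± 0.12 in WT tumours, and Pik3c3 by 0.01 ± 0.09 in each.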

How the data were processed

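The deposited values are FPKM per gene, which the authors made from reads on GRCm38 (mm10) with featureCounts 1.5.0-p3, HISAT2 2.0.5 and CASAVA, per the submitters' processing notes. In every library, FPKM times gene length came in whole steps of 1 read (tolerance 0.1 read), checked on values under 1000 reads. Larger ones were rounded. The step showed that the authors' FPKM were already scaled by median-of-ratios size factors, so they were not scaled again. GENCODE M21 restored 27 symbols stored as dates. Column names matched the labels.

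The 12319 genes that reached 1 FPKM in 4 or more of 16 libraries were fitted as log2(FPKM + 1) in limma 3.58.1 (R 4.3.3), with group means over all libraries, a variance trend and 5 contrasts. A pseudocount of 1 understates changes of low genes. P-values were adjusted by Benjamini-Hochberg over all 12319 genes. Errors are SE for log2 differences and SD for FPKM. The fit was tested on simulated data. Single values were compared by exact two-sided permutation.

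The members, gene lists and settings were chosen with earlier results of these data known. Members named were those with the largest and lowest mean difference over both treatments at a mean of at least 5 FPKM, called members, the most abundant members of each functional list and the smallest p-values for cisplatin. Chsy3 and Pik3c3 were picked after their values were seen. Functional lists are described by counts and medians only. Alternatives changed the pseudocount, filter, scaling, replicate block, method and libraries included. Sequences were not used.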

Additional observations from a re-analysis of the deposited data

Results flagged for a closer look

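In 8 of the 256 groups of 4 values looked at for the named members, 1 library lay far from the other 3, where chance alone gives about 1 in 20. Atp5a1 was high in BdP cisplatin 1 (475 FPKM, against 422 to 427 in the other 3) and in WT PBS 1 (651 FPKM, against 337 to 354). WT PBS 1, the library with 76.9% mitochondrial reads, was also high for Smad2 (12.3 FPKM) and low for Lmnb1 (16.2 FPKM). Etf1, the factor that ends translation, was high in BdP cisplatin 1 (67.5 FPKM), Poli was low in BdP cisplatin 3 (2.22 FPKM), Cdh2 was low in BdP PBS 2 (6.93 FPKM) and Seh1l, of the nuclear pore, was low in WT PBS 2 (22.2 FPKM).

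Among the 62 named members, Stard4 and Tpgs2 had every cisplatin library above every PBS library in BdP tumours. In WT tumours their cisplatin libraries lay below every PBS library. Both had been named for a small p, Stard4 with cisplatin in WT tumours and Tpgs2 in the interaction. The share of such genes among all genes tested was not counted, so nothing is read from their number. For Stard4, a carrier of cholesterol, the effect of cisplatin in BdP tumours exceeded that in WT tumours by 0.86 ± 0.25 on the log2(FPKM + 1) scale. It had 12.4, 13.9, 13.2 and 13.2 FPKM in BdP tumours under cisplatin, against 11.0, 10.8, 11.6 and 11.4 FPKM with PBS. In WT tumours it had 9.96, 9.80, 9.42 and 10.5 FPKM under cisplatin, against 24.4, 12.1, 11.4 and 19.6 FPKM under PBS. For Tpgs2, of the tubulin polyglutamylase complex, it was 0.45 ± 0.12. Neither passed the test of the interaction (limma adjusted p = 0.835 for each).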

How the results depend on the processing

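The median BdP minus WT difference of the members stayed above 0 in each alternative run. Leaving out 1 library gave 0.25 to 0.28 under cisplatin and 0.18 (without WT PBS 1) to 0.24 under PBS. A pseudocount of 0.1 gave 0.32 under cisplatin and 0.25 under PBS, no filter on low values (453 genes) 0.15 and 0.085, and members with r under 0.3 with the leukocyte score, an alternative chosen after seeing the data, 0.23 and 0.14. Centring each library on the other autosomes gave 0.23 and 0.14. Rescaling to an equal sum over nuclear genes gave 0.23 and 0.55, but moved the median of all genes under PBS to 0.35, relative to which the members stood at 0.20. The limma voom fit, also added after seeing the data, gave 0.32 under cisplatin. The lowest median among 10 Mb bins of at least 15 members, 0.17 under cisplatin, was 0.24 with pseudocount 0.1, 0.091 unfiltered, 0.27 at 5 FPKM or more, 0.13 centred, 0.23 with voom and 0.15 to 0.21 with 1 library left out. Under PBS, where it was 0.10, it was 0.046 unfiltered, 0.51 rescaled, 0.043 centred and 0.086 to 0.15 with 1 library left out. Members called under cisplatin, 6, became 2 unfiltered, 3 without the 3 libraries richest in mitochondrial reads, 0 rescaled, 17 with voom and 1 to 27 with 1 library left out. Calls among all genes, 132, became 106, 55, 37, 231 and 50 to 310 in the same order. Members called under PBS, 8, became 1 unfiltered, 5 at 5 FPKM or more, 2 without those 3 libraries, 0 rescaled and 0 to 21 with 1 library left out. Among all genes 122 calls became 56, 90, 50, 5 and 25 to 356 in that order. Replicate numbers did not pair libraries (median r of deviations 0.02 for the same number, with 3 of 16 libraries closest to their own number). With the replicate block 1 member was called under cisplatin (80 of all genes) and 6 under PBS (81 of all genes). Cisplatin and the interaction called 0 members and at most 3 of all genes in each alternative run. The level difference between cisplatin and PBS was -0.07 to -0.03 in WT and 0.002 to 0.017 in BdP tumours with 1 library left out. In WT tumours it was -0.022 unfiltered and -0.056 centred (exact permutation p = 0.0286 each) and 0.35 rescaled (exact permutation p = 0.429), where the median gene moved by 0.41. The causes were not tested. Of 2885 values of named members under alternatives, 0 called values reversed, 55 lost and 12 gained a call, and 78 values that were not called had the other sign, 9 of them without WT PBS 1. The edgeR and DESeq2 fits were not run, as the unit is FPKM. WT PBS 1, with 2322202 nuclear reads, limits the precision of low members under PBS.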
